A study of Mus musculus with 2 samples.

Results

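The 8 genes described here handle extracellular ATP and adenosine in wound monocytes and macrophages: Gja1 and Panx1 code for channel proteins that can release ATP, Entpd1 and Nt5e for the surface enzymes that turn ATP into adenosine, Adora2a and Adora2b for adenosine receptors, and P2rx4 and P2rx7 for ATP-gated channels. They were chosen by symbol, as 8 of the 31053 genes in the deposited count matrices, with their levels in these libraries already known, so every level below is a description and none is tested. All 8 passed the filter on low counts, at least 20 unique molecular identifiers (UMIs, 1 per captured RNA molecule) over both libraries, which 12337 genes passed.

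The study set wound monocytes and macrophages of diabetic mice beside those of non-diabetic mice by droplet single-cell RNA sequencing of 3′ ends (10x Chromium). The diabetic library held cells from skin wounds of diabetic mice on day 6 after injury, and the non-diabetic library cells from wounds of non-diabetic mice on the same day. Each library pooled enzymatically released cells of 2 mice, so there was 1 library per group and no replicate. The labels name neither the diabetes model nor a strain, age or sex, and speak of mice pooled per strain, so a strain difference and diabetes cannot be told apart.

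ATP leaves stressed or stimulated cells through connexin hemichannels, pannexin channels and vesicles, and acts on P2X and P2Y receptors. The ectonucleotidase CD39 (Entpd1) strips ATP and ADP to AMP, and the ectonucleotidase CD73 (Nt5e) turns AMP into adenosine, which signals through receptors that raise or lower cyclic AMP. In macrophages ATP acting on P2X7 is a classical trigger of the inflammasome, whereas adenosine acting on the A2a and A2b receptors dampens inflammatory cytokine output.

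The promoters of Gja1, Nt5e and Adora2b are shown from 250 bases before to 50 bases after the start site in RefSeq (build GRCm38.p6, plus strand). Gja1 and Nt5e differed most between the libraries, and the cluster highest in Adora2b was clear of the next in its interval. In capitals stand matches, on either strand, to the AP-1 site TGANTCA, to TGACG, the core of the cyclic AMP response element, and to the hypoxia response core ACGTG or GCGTG.
Gja1, chr10:56377050-56377349: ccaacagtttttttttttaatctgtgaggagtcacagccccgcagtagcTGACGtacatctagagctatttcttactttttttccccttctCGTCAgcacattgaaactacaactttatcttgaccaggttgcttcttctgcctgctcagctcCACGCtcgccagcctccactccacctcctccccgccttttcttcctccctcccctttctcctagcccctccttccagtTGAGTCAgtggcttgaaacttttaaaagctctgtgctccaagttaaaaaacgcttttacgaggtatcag
Nt5e, chr9:88327359-88327658: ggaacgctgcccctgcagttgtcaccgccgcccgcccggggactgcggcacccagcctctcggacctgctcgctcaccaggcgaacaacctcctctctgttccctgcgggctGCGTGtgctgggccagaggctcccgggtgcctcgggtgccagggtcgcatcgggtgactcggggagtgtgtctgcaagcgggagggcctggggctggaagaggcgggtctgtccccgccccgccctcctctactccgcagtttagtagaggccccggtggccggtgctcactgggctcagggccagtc
Adora2b, chr11:62248734-62249033: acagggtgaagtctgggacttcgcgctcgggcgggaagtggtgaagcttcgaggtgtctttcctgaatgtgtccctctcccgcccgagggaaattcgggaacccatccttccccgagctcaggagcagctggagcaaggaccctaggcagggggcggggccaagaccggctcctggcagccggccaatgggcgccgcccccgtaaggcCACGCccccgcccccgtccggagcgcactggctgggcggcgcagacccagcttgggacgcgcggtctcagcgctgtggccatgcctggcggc

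Of these 3 windows only that of Gja1 held an AP-1 match, 1 at position -19 from the start site, and it also held 2 TGACG matches, at -201 and -159. Among all 32851 mouse promoter windows of the same length, 7.81% held an AP-1 match, 20.8% a TGACG match and 43.8% a hypoxia response core. Each of the 3 windows held 1 hypoxia response core, at -97 for Gja1, -138 for Nt5e and -42 for Adora2b. The Nt5e and Adora2b windows were rich in G and C, at 71.0% and 70.0%, and held 4 and 6 matches to the GC box GGGCGG, which 35.7% of all windows hold, whereas the Gja1 window was 47.7% G and C and held none. The full cyclic AMP response element TGACGTCA, which contains TGACG and is in 1.79% of all windows, was in none of the 9 windows matched for 7 of the 8 genes. Of the remaining windows, 1 of P2rx7 also held an AP-1 match, at -249, and no window was matched for Adora2a. A match describes letters and not a bound site.

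After removal of barcodes with under 500 genes or 10% or more mitochondrial UMIs, 1755 diabetic and 1123 non-diabetic cells remained, with 30435047 and 15429273 UMIs and median depths of 16314 and 14079 UMIs per cell. Before that filter the libraries differed in quality, with 10% or more mitochondrial UMIs in 20.2% of diabetic and 43.9% of non-diabetic barcodes and median depths of 14633.5 and 5094.5 UMIs. All 8 general monocyte and macrophage markers were detected in both libraries, and Csf1r, the receptor for the growth factor of this lineage, had a UMI in 95.2% of diabetic and 87.3% of non-diabetic cells. The 2 deposited libraries shared 6 barcodes, of which 1 passed the filter in both. Joint clustering of 2872 cells gave 15 clusters, and 10 of them drew more than 90% of their cells from 1 library, so that cluster and library are largely the same division. Markers sufficed to name 3 clusters: one neutrophil-like (13 cells), one conventional dendritic cell-like and one classical monocyte-like. The others are called by a leading gene. Levels are CPM, a gene's UMIs per 1000000 UMIs summed over the cells concerned, with 95% exact Poisson intervals that cover counting error only. The median gene was 0.12 higher in the diabetic library on the log2 scale, a shift that TMM scaling reduced to 0.01.

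Between the libraries Gja1 was far higher and Nt5e lower in diabetic cells, both P2X receptors were higher, and Entpd1 and both adenosine receptors were moderately lower. At a 2-fold limit 2 of the 8 genes were higher in the diabetic library, Gja1 and P2rx7, where 9.06% of all measured genes were, and 1 was lower, Nt5e, where 6.54% of all measured genes were. P2rx7 stood on the limit itself, at 2.003-fold, and fell under it with TMM scaling. The genes were chosen from this same contrast, so these counts describe them and show nothing about them as a set. Their median log2 ratio was 0.03, against 0.12 for all measured genes, with 4 genes above 0 and 4 below.

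**Figure D1:**
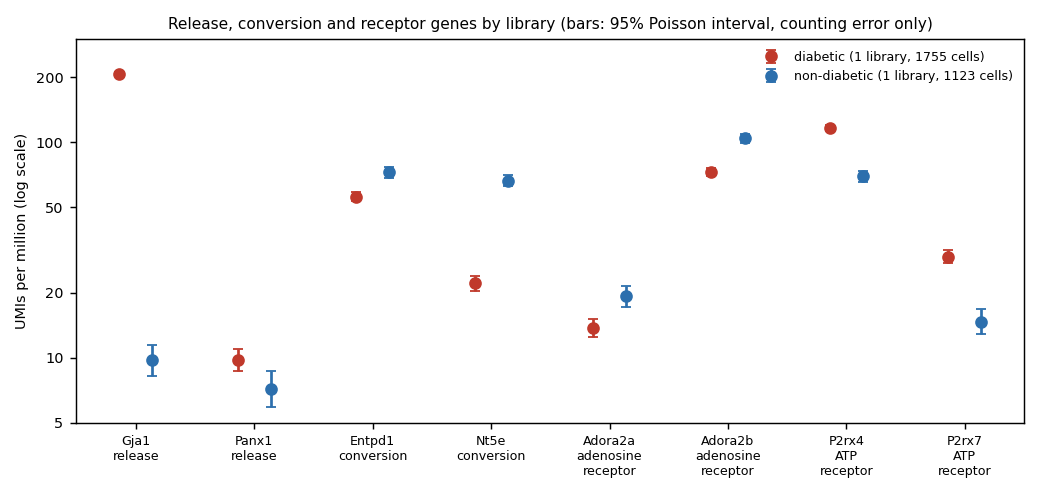
Level of each gene in the diabetic library (red, left of each pair) and the non-diabetic library (blue) in CPM on a log axis, 1 library each, with 95% Poisson intervals for counting error. Gja1 at 207 against 9.72 CPM and Nt5e at 22.1 against 66.4 CPM are the widest pairs, and the other pairs lie within about 2-fold.

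Gja1 (chr10:56377330-56402513, plus strand) codes for Cx43, a connexin of gap junctions and of hemichannels that can pass ATP. It had 6303 UMIs in the diabetic library and 150 in the non-diabetic library, which is 207 CPM (202 to 212) against 9.72 CPM (8.23 to 11.4). The ratio was 21.3-fold (18.1 to 25.2), a log2 ratio of 4.41, and 81 of the 12337 measured genes had a ratio at least as high. A UMI of Gja1 was found in 39.0% of diabetic and 5.52% of non-diabetic cells, and in 18.0% and 1.62% once every cell was thinned to 2000 UMIs. The difference in the share of cells was therefore present at equal depth.

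Most of the diabetic Gja1 signal came from 1 cluster. The Stfa3-led cluster (further leading genes Fst and Lcn2), with 298 diabetic cells and 1 non-diabetic cell, stood at 841 CPM (817 to 865) and held 76.2% of all diabetic Gja1 UMIs. In it 271 of 299 cells (90.6%) had a Gja1 UMI, at a median depth of 19382 UMIs per cell. The dendritic cell-like cluster, at a median of 19214 UMIs, had Gja1 in 0 of 204 cells, which allows a share of up to 1.47%, and its 57 diabetic cells alone also had none, which allows up to 5.26%. Cells of the same library and near-equal depth thus ranged from 90.6% with a UMI to none detected.

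Within the Stfa3-led cluster the level varied widely from cell to cell. The median cell held 12 Gja1 UMIs, the highest 95, and 28 cells held none. Scaled to depth, the median cell stood at 648 CPM with quartiles at 234 and 1189.6 CPM. The 30 highest cells gave 32.7% of the cluster's Gja1 UMIs, and 171 cells had 10 or more, so the level was not carried by a handful of cells.

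**Figure D2:**
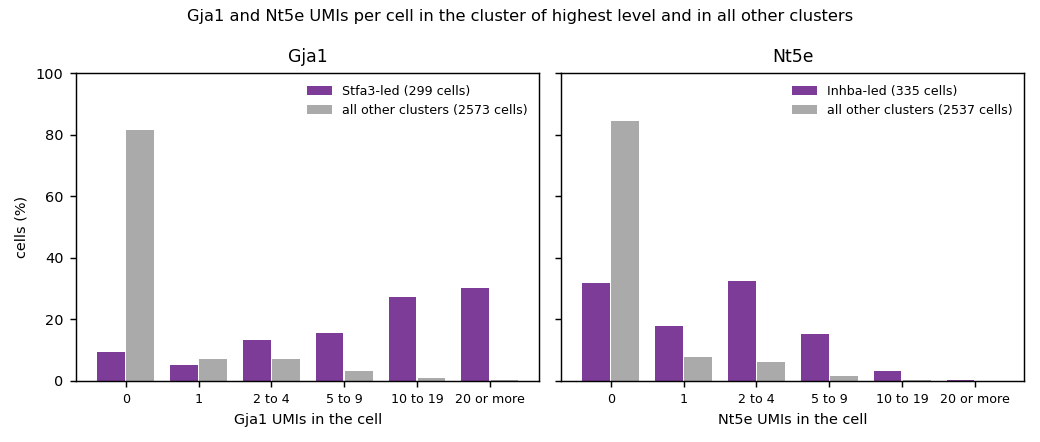
Share of cells (%) by number of UMIs per cell for Gja1 (left; 299 cells of the Stfa3-led cluster in purple, 2573 other clustered cells in grey) and Nt5e (right; 335 cells of the Inhba-led cluster, 2537 other cells). For Gja1, 30.1% of Stfa3-led cells have 20 or more UMIs and 81.6% of other cells have 0, while for Nt5e 31.6% of Inhba-led cells have 0.

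Outside that cluster Gja1 was still found mainly in diabetic cells, at lower levels. The Cd163-led cluster, marked by the haemoglobin scavenger receptor, followed at 105 CPM (95.02 to 115), the Rgcc-led cluster at 91.8, the Ctsk-led cluster at 82.1 and the Ccl8-led cluster at 62.8. The intervals of neighbours in this order overlap except between the Stfa3-led and Cd163-led clusters and between the Ccl8-led and Fosb-led clusters, which stood at 42.4 CPM. In the Fosb-led cluster 155 Gja1 UMIs lay in 202 diabetic cells (47.6 CPM) and 1 in 29 non-diabetic cells (2.36 CPM). The Inhba-led cluster of non-diabetic cells, at 21.1 CPM in its 332 non-diabetic cells, held 55.3% of the non-diabetic Gja1 UMIs. The classical monocyte-like cluster was near the bottom, at 3.77 CPM.

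Without the Stfa3-led cluster the log2 ratio of Gja1 was 2.64, without the Inhba-led cluster 5.15, and without both 3.37. In the Stfa3-led cluster 7 of 10 fibroblast markers were detected, with Pdgfra, Thy1 and Fap at 0 and a list sum of 59.0 CPM against 55.5 CPM in the other diabetic cells. One of them, Dcn, did move with Gja1, at 51.3 CPM there against 1.33 CPM in the other diabetic cells. Its 293 UMIs lay in 12 of the 299 cells, 144 of them in 1 cell. By a split added after seeing the data, Gja1 was at 950 CPM (805 to 1114) in the 12 cells with a Dcn UMI. In the 287 cells with none it was at 838 CPM (814 to 862). Over the whole Stfa3-led cluster the endothelial list summed to 21.4 CPM against 71.2 CPM in the other diabetic cells. The keratinocyte list summed to 1.75 against 1.82 CPM, with 5 of its 7 markers at 0. The neutrophil list did move with Gja1 in sum, at 19257 CPM in the Stfa3-led cluster against 1276 CPM in the other diabetic cells. S100a8 alone gave 17628 and 750 CPM of these sums. Of the 10 markers 9 were detected in the cluster, with the defining marker Ly6g at 0, and 10 in the other diabetic cells. Only 3, S100a8, S100a9 and Mmp8, were at least 2-fold higher than in all other passing cells and found in 10% or more of the cluster's cells. General monocyte and macrophage markers were all detected in that cluster, at lower sums. The 8-gene list was at 6661 CPM against 21499 CPM in the other diabetic cells and the 12-gene macrophage list at 1361 against 11485 CPM. The 10-gene classical monocyte list went the other way, at 7554 against 5727 CPM, and Hp alone gave 3739 CPM in the Stfa3-led cluster. The part of the fibroblast, neutrophil, monocyte and macrophage lists in the result was not tested. The 13 neutrophil-like cells had no Gja1 UMI among 51122 UMIs, a small sum that allows up to 3 Gja1 counts. By library the fibroblast list was lower in diabetic cells, at 56.2 against 298 CPM, but these sums rest on few cells. Of its 4598 non-diabetic UMIs 4469 lay in the 48 non-diabetic cells of the Ctsk-led cluster, where 1 cell held 1521 Col1a1 UMIs. Of its 1709 diabetic UMIs 1013 lay in the 129 diabetic cells of that cluster, where 1 cell held 831 Sparc UMIs.

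Panx1 (chr9:15002128-15045478, minus strand) codes for pannexin 1, a channel that opens on caspase cleavage and lets ATP out. It was a low gene, with 298 UMIs in diabetic and 111 in non-diabetic cells, at 9.79 CPM (8.71 to 11.0) and 7.19 CPM (5.92 to 8.66), a ratio of 1.36-fold (1.09 to 1.71). Its levels by cluster ran from 3.01 CPM in the Inhba-led cluster to 15.8 CPM in the AY036118-led cluster of low depth (a median of 4462 UMIs per cell, 5 Panx1 UMIs), with 14.5 CPM in the Stfa3-led and 14.3 CPM in the dendritic cell-like clusters. None of the 13 pairs of neighbours in that order had separate intervals. Without the Stfa3-led and Inhba-led clusters the log2 ratio, 0.44 over all cells, was 0.036. Which cluster was highest also changed with the clustering.

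Entpd1 (chr19:40612366-40741602, plus strand) codes for CD39, the enzyme of the first step, ATP to AMP. It had 1697 UMIs in diabetic and 1122 in non-diabetic cells, at 55.8 CPM (53.1 to 58.5) and 72.7 CPM (68.5 to 77.1), 1.30-fold lower in diabetic cells (1.21 to 1.41). The annotated gene overlaps Gm16027, Gm8783 and AC166063.1 on the same strand, and how reads there were assigned was not tested. Among the 14 clusters of at least 30 cells, the 8 highest lay between 62.7 and 106 CPM with neighbours that overlap, among them the Inhba-led at 106, the Ccl8-led at 98.4, the Chil3-led at 91.5 and the Fosb-led at 86.4 CPM. Lowest were the Ctsk-led at 28.4, the dendritic cell-like at 23.1 and the Stfa3-led at 14.9 CPM (11.9 to 18.4), the last with its interval below all others. The cluster with the most Gja1 was thus the one with the least Entpd1. In the 13 neutrophil-like cells, all diabetic, 37 UMIs gave 724 CPM (509.6 to 998), from 51122 UMIs in all. Without the Stfa3-led and Inhba-led clusters the log2 ratio was 0.081, against -0.38 over all cells. With doublets kept in the clustering another cluster, led by Nrg1 and Rgcc, was highest at 105 CPM.

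Nt5e (chr9:88327197-88372092, plus strand) codes for CD73, the enzyme that forms adenosine from AMP. It had 673 UMIs in diabetic and 1024 in non-diabetic cells, at 22.1 CPM (20.5 to 23.8) and 66.4 CPM (62.4 to 70.6). It was 3.001-fold lower in diabetic cells (2.72 to 3.31), and 408 of 12337 genes had a ratio at least as low. The difference followed 1 cluster: the one led by Inhba (a subunit of activin), Nt5e itself and Tnfrsf9 had 3 diabetic and 332 non-diabetic cells, stood at 203 CPM (189.6 to 218) and held 78.0% of the non-diabetic Nt5e UMIs. Nt5e helped to define that cluster, so its level there is no separate finding. In it 229 of 335 cells (68.4%) had an Nt5e UMI and 106 had none.

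Next in the order of Nt5e levels came the Stfa3-led cluster at 60.6 CPM (54.4 to 67.3), which held 51.4% of the diabetic Nt5e UMIs. In its 12 cells with a Dcn UMI Nt5e was at 150 CPM (96.1 to 223), and in its other 287 cells at 58.0 CPM (51.8 to 64.7). The Chil3-led cluster followed at 38.6 CPM, the Ctsk-led at 31.4, the Rgcc-led at 28.9 and the Fosb-led at 20.1 CPM, with overlapping neighbours. The other 8 clusters of at least 30 cells were at 9.50 CPM or less, down to 1.51 CPM in the classical monocyte-like cluster (3 of 275 cells with a UMI) and 0.757 CPM in the Ccl8-led cluster (1 UMI). Nt5e thus passed 20 CPM in 6 of these 14 clusters, and Entpd1 in 13 of them. Without the Inhba-led cluster the log2 ratio of Nt5e was 0.15, against -1.59 over all cells, without the Stfa3-led cluster it was -2.33, and without both -0.62.

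**Figure D3:**
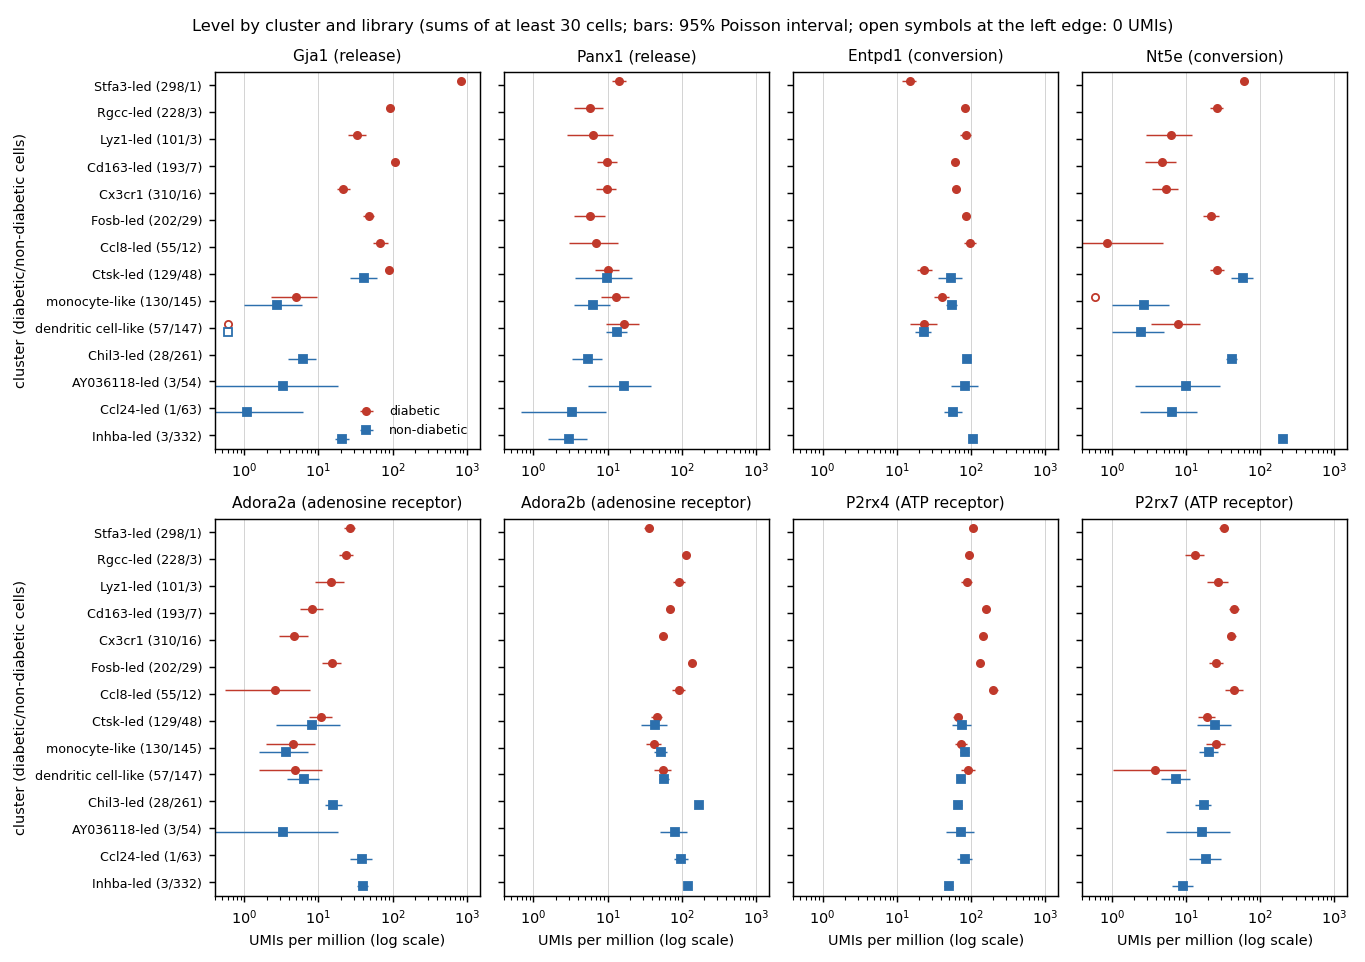
Level of each gene in CPM (log axis) by cluster for diabetic cells (red circles) and non-diabetic cells (blue squares), for sums of at least 30 cells, with 95% Poisson intervals, open symbols for 0 UMIs and clusters ordered by their diabetic share. Gja1 peaks in the Stfa3-led cluster at 842 CPM in its diabetic cells and Nt5e in the Inhba-led cluster at 203 CPM in its non-diabetic cells, while P2rx4 stays between 50.3 and 201 CPM in every sum shown.

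Adora2a (chr10:75316877-75334784, plus strand) codes for the A2a receptor, which binds adenosine tightly and raises cyclic AMP. It had 420 UMIs in diabetic and 297 in non-diabetic cells, at 13.8 CPM (12.5 to 15.2) and 19.2 CPM (17.1 to 21.6), 1.39-fold lower in diabetic cells (1.20 to 1.62). Its highest clusters were the Inhba-led at 39.9, the Ccl24-led at 37.6, the Stfa3-led at 26.6 and the Rgcc-led at 23.5 CPM, and its lowest the Ccl8-led at 3.03 CPM. No neighbours in the order were apart in their intervals. The Inhba-led cluster held 52.2% of the non-diabetic UMIs, and without it the log2 ratio was 0.15, against -0.48 over all cells.

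Adora2b (chr11:62248984-62266453, plus strand) codes for the A2b receptor, which needs more adenosine and is known to be induced by hypoxia. It had 2211 UMIs in diabetic and 1609 in non-diabetic cells, at 72.6 CPM (69.7 to 75.7) and 104 CPM (99.2 to 109.5), 1.44-fold lower in diabetic cells (1.35 to 1.53). The Chil3-led cluster, which had interferon-induced leading genes such as Isg15 and 261 of its 289 cells from the non-diabetic library, was highest at 174 CPM (162 to 188), clear of the Fosb-led at 138 CPM (126 to 151). The Inhba-led at 122 and the Rgcc-led at 115 CPM followed, and the Stfa3-led cluster was lowest at 35.9 CPM (31.2 to 41.2). The direction of the library difference was kept under every alternative run, with log2 ratios from -0.64 to -0.27. Within single clusters the ratio of Adora2b was 0.81 (0.60 to 1.10) in the classical monocyte-like and 0.98 (0.71 to 1.33) in the dendritic cell-like cluster. In the Ctsk-led cluster it was 1.07 (0.70 to 1.69).

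P2rx4 (chr5:122707544-122729738, plus strand) codes for a P2X channel found on the cell surface and in lysosomes. It had 3533 UMIs in diabetic and 1073 in non-diabetic cells, at 116 CPM (112 to 120.0) and 69.5 CPM (65.4 to 73.8), 1.67-fold higher in diabetic cells (1.56 to 1.79). The highest clusters consisted mostly of diabetic cells: the Ccl8-led, with the growth factor genes Gas6 and Igf1, at 189 CPM (167 to 214), the Cd163-led at 161 CPM (149 to 174) and the Cx3cr1 cluster at 147 CPM (136 to 158), with overlapping intervals. The Inhba-led cluster was lowest at 49.9 CPM (43.2 to 57.3), apart from the next. The log2 ratio, 0.74 over all cells, stayed between 0.61 and 0.85 under every alternative run.

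P2rx7 (chr5:122643911-122691432, plus strand), the neighbour of P2rx4 in the genome, codes for the P2X channel that needs high ATP and triggers the NLRP3 inflammasome. It had 897 UMIs in diabetic and 227 in non-diabetic cells, at 29.5 CPM (27.6 to 31.5) and 14.7 CPM (12.9 to 16.8), 2.003-fold higher in diabetic cells (1.73 to 2.33). The same 3 clusters were highest, the Ccl8-led at 46.9, the Cd163-led at 44.4 and the Cx3cr1 cluster at 40.5 CPM, with the Stfa3-led at 32.2 CPM next. The Inhba-led at 9.02 and the dendritic cell-like at 6.48 CPM were lowest. At other clustering settings the Cd163-led cluster ranked first for P2rx7, and in 2 of 3 settings for P2rx4. In the Stfa3-led cluster 1 cell gave 22 of its 184 P2rx7 UMIs. Most macrophage markers moved with both P2X genes by library. Of the 12-gene list, all detected in both, 8 were at least 2-fold higher in diabetic cells, where 9.06% of all measured genes were. Adgre1, the F4/80 antigen, was at 242 CPM in diabetic and 99.9 CPM in non-diabetic cells, whereas Cd68 was lower, at 324 against 362 CPM. The list summed to 9589 and 4759 CPM, of which Apoe gave 4956 and 3022 CPM. In the Stfa3-led cluster it summed to 1361 CPM. The part of these markers in the difference of P2rx4 and P2rx7 was not tested.

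**Figure D4:**
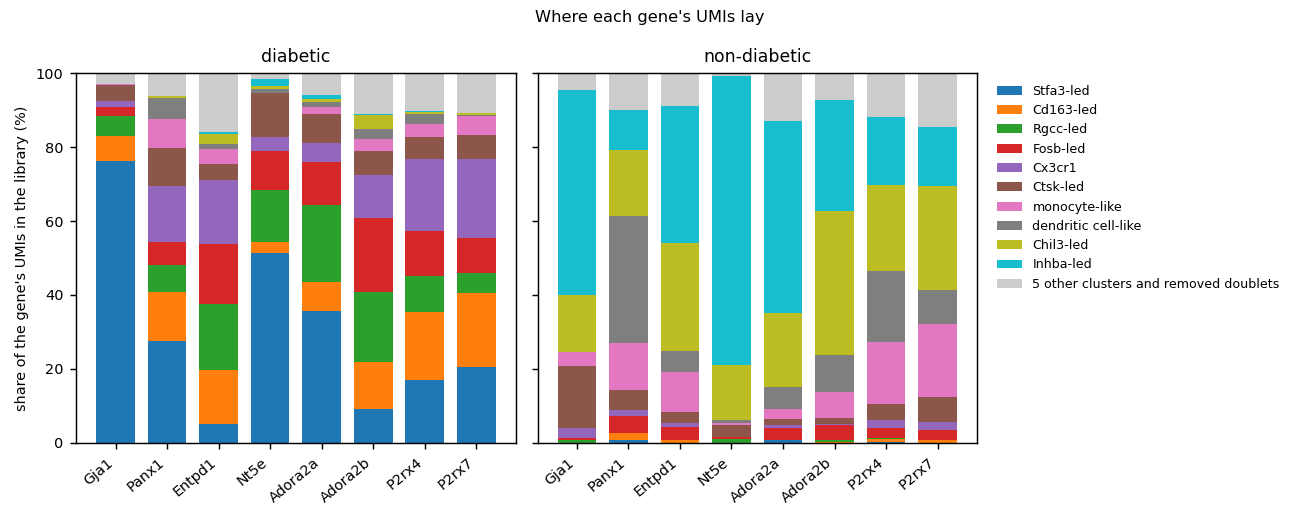
Share (%) of each gene's UMIs that lay in each cluster, for the diabetic library (left) and the non-diabetic library (right), with the 5 remaining clusters and the removed doublets in grey. The Stfa3-led cluster (blue) takes 76.2% of diabetic Gja1 and 51.4% of diabetic Nt5e but 5.01% of diabetic Entpd1, and the Inhba-led cluster (cyan) takes 78.0% of non-diabetic Nt5e and 37.1% of non-diabetic Entpd1.

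Only 3 clusters held at least 30 cells of each library. In the classical monocyte-like cluster (130 diabetic and 145 non-diabetic cells) Entpd1 was 1.36-fold lower in diabetic cells (1.01 to 1.85), at 40.4 against 55.0 CPM, and the intervals of the ratios of Panx1, Adora2b, P2rx4 and P2rx7 included 1. By size alone 1 of the 5 genes measured there, Panx1 at 12.9 and 6.37 CPM (2.03-fold), was at least 2-fold higher, where 3.71% of 8228 genes were, and none was as much lower, where 5.49% were (9.2% in either direction). For P2rx4 the levels there were 73.6 CPM in diabetic and 81.9 CPM in non-diabetic cells, a ratio of 0.90 (0.71 to 1.13), and for P2rx7 25.3 and 20.5 CPM, a ratio of 1.23 (0.80 to 1.91), against library ratios of 1.67 (1.56 to 1.79) and 2.003 (1.73 to 2.33). The intervals within this cluster and over the libraries were apart for P2rx4 and overlapped for P2rx7. In the dendritic cell-like and Ctsk-led clusters the ratios of P2rx7 were 0.52 (0.13 to 1.54, from 4 and 21 UMIs) and 0.77 (0.43 to 1.46). Both P2rx7 intervals lay below that of the libraries. The ratios of P2rx4 there were 1.25 (0.97 to 1.60) and 0.88 (0.63 to 1.23). In the dendritic cell-like cluster (57 diabetic and 147 non-diabetic cells) Entpd1 was at 23.2 and 23.0 CPM and Adora2b at 56.1 and 57.4 CPM, with ratios of 1.01 (0.60 to 1.63) and 0.98 (0.71 to 1.33). None of the 6 genes measured there was past 2-fold, where 2.66% of 8470 genes were higher and 8.5% lower (11.2% in either direction). Gja1 and Nt5e had fewer than 20 UMIs in both of these clusters.

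In the Ctsk-led cluster (129 diabetic and 48 non-diabetic cells), led by the osteoclast genes Ctsk and Acp5 and Cxcl14, Gja1 was at 90.01 CPM in diabetic and 41.4 CPM in non-diabetic cells, 2.17-fold higher (1.44 to 3.42). Nt5e was at 26.2 and 58.0 CPM there, 2.21-fold lower in diabetic cells (1.44 to 3.32), and Entpd1 at 23.6 and 53.0 CPM, 2.24-fold lower (1.43 to 3.44). Thus 1 of the 8 genes was past 2-fold higher where 11.5% of the 9089 genes measured in that cluster were, and 2 were past 2-fold lower where 7.89% were (19.4% in either direction). This cluster carried markers of other cell types. Its fibroblast list summed to 328 CPM in diabetic and 7403 CPM in non-diabetic cells, and its endothelial list to 363 and 89.5 CPM, each from few cells: 1 diabetic cell held 831 of the 962 Sparc UMIs and 1 non-diabetic cell 1521 of the 1524 Col1a1 UMIs. Over the whole libraries 6 of 8 endothelial markers were at least 2-fold higher in diabetic cells, where 9.06% of all measured genes were. Their list summed to 61.9 and 28.4 CPM, but the diabetic sum rested largely on few cells. Of its 1883 diabetic UMIs 1121 lay in the 129 diabetic cells of the Ctsk-led cluster, where 2 cells held 5 or more. Leaving out its 5 diabetic and 3 non-diabetic cells with 5 or more fibroblast-list UMIs, Gja1 was at 76.5 and 22.8 CPM, Nt5e at 26.1 and 66.5 CPM, and Entpd1 at 22.6 and 60.8 CPM. With the endothelial list counted as well, also added after seeing the data, 123 diabetic and 43 non-diabetic cells were left. In these Gja1 was at 77.7 and 23.9 CPM, Nt5e at 26.5 and 55.9 CPM, and Entpd1 at 22.9 and 55.9 CPM. After either step the non-diabetic Gja1 level rested on 12 UMIs. After the first they lay in 4 of 45 cells, 9 of them in 1 cell, with an interval of 11.8 to 39.8 CPM. Among the cells left out, 1 diabetic cell held 48 of the cluster's 278 diabetic Gja1 UMIs. In the same group 1 non-diabetic cell held 12 of the 25 non-diabetic ones.

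Genes of successive steps were also read in single cells. Entpd1 and Nt5e, the full path from ATP to adenosine, were both detected in 105 of 1751 diabetic cells (6.00%) and 198 of 1121 non-diabetic cells (17.7%), and in 0.232% and 2.49% in 1 draw thinned to 2000 UMIs per cell. Of the Inhba-led cells 147 of 335 (43.9%) held both, against 29 of 299 (9.70%) in the Stfa3-led cluster, where Nt5e was present but Entpd1 low. Gja1 and Nt5e were both detected in 130 of the 299 Stfa3-led cells (43.5%), and in 25 of 335 Inhba-led cells (7.46%). P2rx4 and P2rx7 were both detected in 440 of 1751 diabetic cells (25.1%) and 117 of 1121 non-diabetic cells (10.4%). Of the 11 largest clusters, for which this was counted, the Cd163-led had the highest share with 94 of 200 cells (47.0%), but thinned to equal depth it had 3.55% and the Stfa3-led cluster 3.39%. Shares of double-positive cells rise with depth and with the level of each gene, and the dendritic cell-like cluster, for comparison, held Entpd1 with Nt5e in 3 of 204 cells (1.47%) and both P2X genes in 16 of 204 (7.84%).

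Likeness was read as the Pearson correlation of log2(CPM + 10) over the 17 sums of at least 30 cells per cluster and library, among 8489 genes, as a description, since the sums of 1 library share its depth and cells. Closest to Gja1 were Cyth3 (r = 0.93), Dst and Cpd (0.90 each), and closest to Nt5e were Cited2 (0.91), Carmil1 (0.90) and Gys1 (0.88). Closest to P2rx7 were AI413582, Marcks and the macrophage gene Adgre1 (0.87 each), and closest to P2rx4 were Adam19 (0.88), Trim23 (0.88) and Pianp (0.87). Entpd1 itself was among the 3 genes closest to Adora2b (0.77), after Kdm2a (0.79) and Rnf2 (0.78), and its own closest were Trpc4ap (0.86), Vmp1 and Rab32 (0.83 each). Adora2a was closest to Ptpn12 and P2ry10b (0.90 each) and Snx25 (0.89), and Panx1 to Acad9 (0.83), Dalrd3 (0.78) and Knop1 (0.76). Among the 8 genes, P2rx4 with P2rx7 (0.69) and Nt5e with Adora2a (0.66) were the next closest pairs after Entpd1 with Adora2b, and Panx1 ran against Adora2b (-0.69).

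The wider lists of release, conversion, transport and receptor genes held 55 genes, of which 54 were in the matrix and 34 passed the low-count filter. Of these 34, 10 were at least 2-fold higher and 3 at least 2-fold lower in diabetic cells, where 9.06% and 6.54% of all measured genes were, and their median log2 ratio was 0.57 against 0.12 for all genes. The lists were drawn up with earlier results of these data known. They also hold partners of these genes, such as Tjp1 and Dpp4, and P2ry10 by its P2Y name, so a listed gene need not handle ATP or adenosine itself. Of the 6 measured genes on the release list 2 were past 2-fold higher, Gja1 and Tjp1. The tight junction scaffold Tjp1, which binds Cx43, was at 1.87 and 0.583 CPM, 3.21-fold higher in diabetic cells (1.58 to 7.38). It was highest in the Ctsk-led cluster, at 11.1 CPM from 41 UMIs, of which 0 diabetic and 1 non-diabetic UMI lay in the cells with under 5 fibroblast and endothelial UMIs.

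Of the 11 measured genes on the conversion list 4 were past 2-fold higher, where 9.06% of all measured genes were. Past 2-fold lower were 2, the enzyme gene Nt5e and the partner gene Dpp4, where 6.54% of all measured genes were. Acpp, an acid phosphatase that like CD73 can turn AMP into adenosine, had 894 UMIs in diabetic and 25 in non-diabetic cells, at 29.4 and 1.62 CPM, 18.1-fold higher (12.2 to 28.2). It too was highest in the Stfa3-led cluster, at 127 CPM (118 to 137), ahead of the Cd163-led at 18.3 CPM. Cd38, which consumes NAD at the cell surface, was at 242 and 64.0 CPM, 3.78-fold higher (3.53 to 4.04), and highest in the Stfa3-led cluster at 555 CPM. Enpp1, which cleaves ATP to AMP and pyrophosphate, was at 12.7 and 4.73 CPM, 2.68-fold higher (2.08 to 3.49), and highest in the Ccl8-led and Cd163-led clusters at 53.8 and 43.2 CPM. Entpd3, a relative of Entpd1, was at 3.09 and 0.648 CPM. The adenosine-degrading Ada was at 4.04 and 2.07 CPM and Adk, which returns adenosine to AMP, at 20.4 and 17.8 CPM. Dpp4, which anchors Ada on human cells, was 3.33-fold lower (2.75 to 4.03), at 5.78 and 19.2 CPM, and was highest in the dendritic cell-like cluster at 107 CPM, whose share of cells differed between the libraries (57 and 147 cells).

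**Figure D5:**
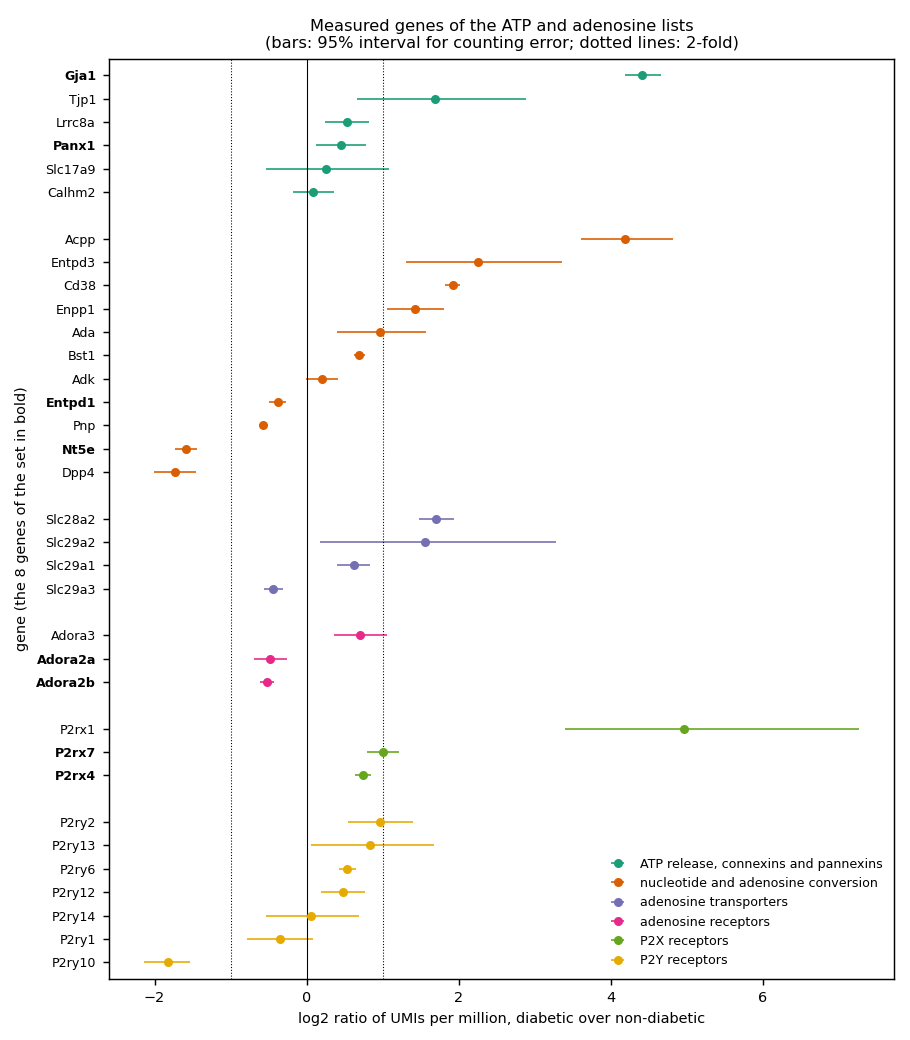
Log2 ratio of CPM, diabetic over non-diabetic, for the 34 measured genes of the release, conversion, transporter and receptor lists (the 8 genes of the set in bold), with 95% intervals for counting error and dotted lines at 2-fold. Gja1 (4.41), Acpp and P2rx1 lie far to the right, and Nt5e (-1.59), Dpp4 and P2ry10 beyond the left dotted line.

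Of the transporters, the concentrative nucleoside carrier Slc28a2 was at 38.0 and 11.7 CPM, 3.26-fold higher (2.79 to 3.84), and the equilibrative carrier Slc29a2, with 29 and 5 UMIs, was 2.94-fold higher (1.13 to 9.73). The equilibrative carriers Slc29a1 and Slc29a3 were at 22.8 and 14.9 CPM and at 42.4 and 57.6 CPM. Of the receptors, P2rx1 had 185 UMIs in diabetic and 3 in non-diabetic cells, a ratio of 31.3-fold with a counting interval from 10.53 to 153. The UDP receptor gene P2ry6 was at 86.1 and 59.6 CPM, 1.45-fold higher (1.34 to 1.56), and P2ry10 at 4.70 and 16.7 CPM, 3.56-fold lower (2.89 to 4.40), and highest in the dendritic cell-like cluster at 87.9 CPM. Adora3 was at 9.59 and 5.90 CPM, 1.63-fold higher (1.28 to 2.08), so the adenosine receptors did not share a direction, and Adora1 had no UMI in either library.

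Genes that respond to adenosine or cyclic AMP, which many other signals also induce, had a lower median in diabetic cells. Of 10 such genes 1 was at least 2-fold higher, 1 at least 2-fold lower and 8 within 2-fold, at a median log2 ratio of -0.77 against 0.12 for all measured genes. At 9.06% higher and 6.54% lower over all measured genes, 1 of 10 in each direction is near the background. The orphan nuclear receptor gene Nr4a3 was at 84.8 CPM in diabetic and 169 CPM in non-diabetic cells, just inside the limit, Crem at 62.9 and 107 CPM, and Vegfa at 202 and 438 CPM, 2.17-fold lower. Areg, an epidermal growth factor receptor ligand, was the exception at 225 and 54.6 CPM, 4.12-fold higher (3.83 to 4.43), and it was highest in the Stfa3-led cluster at 705 CPM. Of 7 genes downstream of P2X7 in the inflammasome none was past 2-fold in either direction, where 15.6% of all measured genes were, a count that says little for so short a list. Their median log2 ratio was -0.23. Nlrp3 was at 261 and 374 CPM and Il1b at 4663 and 5455 CPM, both lower in diabetic cells, whereas Nek7 at 45.8 and 32.7 CPM (1.40-fold, 1.26 to 1.55) and Il18 at 54.4 and 48.8 CPM (1.11-fold, 1.022 to 1.22) were higher, as P2rx7 was. Nlrp3 was highest in the Inhba-led cluster at 703 CPM, where P2rx7 was at 9.02 CPM.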

How the data were processed

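Single-cell 3′ RNA libraries of wound monocytes and macrophages, 1 diabetic and 1 non-diabetic, were compared. The deposited values are raw UMI counts per gene and barcode, made by the authors with Cell Ranger 3.0.2 per the file headers. The submitters' processing notes name build mm10. The annotation behind the counts is not stated there. The members and gene lists were chosen with earlier results of these data known. Barcodes passed with 500 or more detected genes and less than 10% of UMIs mitochondrial. Scrublet (scanpy 1.11.5) marked 4 diabetic and 2 non-diabetic cells (0.228% and 0.178%), so doublets may remain. Marked cells were left out of the clustering (2000 variable genes, 30 principal components, 15 neighbours, Leiden resolution 1) but not of the library sums. The named genes are the 8 members, listed genes with at least 20 UMIs, cluster leading genes and the 3 genes most like each member. Likeness used genes with at least 200 UMIs.

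Levels are CPM of summed UMIs with 95% exact Poisson intervals, ratios have conditional exact binomial intervals, and shares were also computed with each cell thinned to 2000 UMIs, which left out 25 diabetic and 37 non-diabetic cells. These cover counting error only. With 1 library of 2 pooled mice per group there is no test and no p-value. A count of 0 was given an upper limit of 3 counts. edgeR 4.0.16 and DESeq2 1.42.0 were used for scaling factors only, as alternatives. Gene positions come from GENCODE M21 (GRCm38, the build of mm10) and promoters from RefSeq. BLAST 2.17.0 found no transcript of another gene at 95% identity or more over at least 200 bases. The ratio and thinning code was tested on simulated data.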

Additional observations from a re-analysis of the deposited data

Results flagged for a closer look

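Barcodes that failed the cell filter, 459 diabetic and 903 non-diabetic, entered no comparison, and 3 of the genes were higher in the diabetic ones. Gja1 was at 57.1 CPM (44.9 to 71.7) in diabetic and 7.51 CPM (4.29 to 12.2) in non-diabetic failed barcodes, lower than the 207 CPM of the diabetic cells that passed. P2rx4 was at 157 CPM (136 to 179.9) in diabetic and 87.3 CPM (75.2 to 101) in non-diabetic failed barcodes. P2rx7 was at 40.9 CPM (30.7 to 53.5) in diabetic and 17.4 CPM (12.2 to 23.9) in non-diabetic failed barcodes. The direction of each was that found in the cells that passed.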

How the results depend on the processing

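No paired analysis was possible because there is 1 library per group. All intervals cover counting error only, a mouse cannot be told from another within a pool, and clusters largely follow the libraries. Of the recomputed log2 ratios 63 stayed within their counting interval and 32 moved beyond it. In 1 more, Nt5e without the Inhba-led cluster, a difference of at least 2-fold gave way to a log2 ratio of 0.15, of opposite sign. Among the 32 the sign also changed for Adora2a without that cluster (0.15) and for Entpd1 without the Stfa3-led and Inhba-led clusters (0.081). Of the recomputed counts 38 stayed within 1.5 times and 10 moved. The causes were not tested beyond what each setting leaves out.

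Without the Inhba-led cluster the log2 ratio was 0.15 for Nt5e, 5.15 for Gja1, -0.14 for Entpd1, 0.15 for Adora2a and 0.61 for P2rx4, and 0 genes of the set were at least 2-fold lower. Without the Stfa3-led cluster it was 2.64 for Gja1, -2.33 for Nt5e, -0.16 for Entpd1, -0.81 for Adora2a and -0.36 for Adora2b. Without both, a setting added after seeing the data, it was 3.37 for Gja1, 0.036 for Panx1, 0.081 for Entpd1, -0.62 for Nt5e, -0.18 for Adora2a and -0.27 for Adora2b, and without the Ctsk-led cluster, also added, 4.71 for Gja1. Without the dendritic, neutrophil and stromal-mixed clusters it was -0.52 for Entpd1, -1.88 for Nt5e, -0.63 for Adora2b and 0.85 for P2rx4. As a mean of per-cell CPM it was 3.997 for Gja1, -1.74 for Nt5e and -0.42 for Adora2b, and with cells thinned to 2000 UMIs -0.55 for Entpd1, -1.94 for Nt5e and -0.31 for Adora2b. With TMM scaling it was -0.50 for Entpd1, -0.63 for Adora2b and 0.63 for P2rx4, and with DESeq2 size factors -0.50, -0.64 and 0.62 for the same genes.

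The number of genes at least 2-fold higher in the diabetic library, 2 with all passing cells, was 1 under each of 8 settings, where P2rx7 fell short: no cell filter, doublets removed, the dendritic, neutrophil and stromal-mixed clusters, the Stfa3-led cluster or the Inhba-led cluster left out, the per-cell mean, TMM and DESeq2 scaling. The number of listed pathway genes at least 2-fold higher, 10, was 16 when genes with 1 UMI or more were kept.

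Gja1, Nt5e, Adora2a and Adora2b were highest in a cluster with the same first leading gene under all 3 other clusterings, whereas for Panx1, Entpd1, P2rx4 and P2rx7 at least 1 of them put another cluster first.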
